A study of Mus musculus with 6 samples.

Results

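The 47 genes described here encode the machinery that licenses and copies DNA: the origin recognition complex, the loading factors and their inhibitor, the MCM helicases and their activators, the replicative polymerases and primase, the sliding clamp and its loader, the proteins of single strands and nicks, the enzymes that supply deoxynucleotides, and fork protection. They were taken as a named list and matched by Ensembl ID to mouse symbols, and all 47 were found among the 56393 genes of the table. RNA sequencing was available for 3 libraries of mouse vascular smooth muscle cells knocked out for Nono (KO) and 3 of wild-type cells (WT). The protocol calls both groups primary cells, while a label calls them a cell line, and both were grown in medium with 20% serum and given no other treatment. The sources used here do not say how the knockout was made, from which vessel, sex or age the cells came, or whether replicates were separate cultures. The p-values therefore reflect the spread among these 6 libraries alone, which may be technical.

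Before a cell copies its DNA, the origin recognition complex, Cdc6 and Cdt1 load the ring-shaped MCM2-7 helicase onto origins, a step called licensing. Cdc45 and the GINS complex then turn the loaded ring into an active helicase, and polymerases, clamp and ligase follow it at the fork. Many of these genes are transcribed as cells enter S phase under the control of E2F factors, and cells that leave the cycle lower most of them, while the core origin recognition subunits are known to vary less through the cycle. Smooth muscle cells of a healthy vessel divide rarely, and in culture with serum they enter the cycle.

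Library totals ranged from 56529170 to 61670083 counts. Nono, the targeted gene and a protein of paraspeckles, was at 56.0, 54.8 and 51.1 CPM (read counts scaled to a common library size with TMM factors) in KO libraries, against 523, 502 and 519 CPM in WT libraries. The genotypes differed over much of the transcriptome, with 69.3% of the 18732 tested genes passing an adjusted p of 0.05 in either direction. The libraries also differed in ways that go with genotype and cannot be told apart from it here. The Y-linked genes Eif2s3y, Kdm5d, Uty and Ddx3y summed to between 149.9 and 163 CPM in KO and between 0 and 0.0795 CPM in WT, while Xist, the RNA of the inactive X chromosome, was at 0.682, 0.509 and 0.441 CPM in KO and 0.602, 0.267 and 0.668 CPM in WT and was not called. Of 8 smooth muscle markers 5 were higher and 2 lower in KO (sum 245 to 249 CPM in KO, 67.4 to 76.5 CPM in WT), and the defining marker Myh11 lay at 0, 0.436 and 0.221 CPM in KO and 0.46, 0.734 and 0.207 CPM in WT. A defining smooth muscle marker was thus close to 0 in both groups, although the labels call the cells smooth muscle. The other markers were not all near 0. By mean, Acta2 was at 161 CPM in KO and 16.4 CPM in WT, and Lmod1 at 7.52 CPM in KO and 1.41 CPM in WT. Smtn, chosen after its values were seen, was at 58.1 CPM in KO and 47.8 CPM in WT. Tagln and Cnn1 were also higher in KO, whereas Des and Myocd were lower. Of 8 fibroblast markers 7 were higher and 1 lower (sum 16855 to 18203 CPM in KO, 1520 to 1712 CPM in WT), led by Col1a2, Col3a1 and Col1a1 by adjusted p, and Lum and Thy1, chosen after their values were seen, were at 0 counts in all WT libraries. Of 4 tested endothelial markers, Kdr, Pecam1 and Tek were lower and Vwf higher in KO, and all 8 listed summed to at most 1.93 CPM in KO and 3.70 CPM in WT. The defining endothelial marker Cdh5 and Kdr were at 0 counts in all KO libraries. Of 3 tested leukocyte markers, Lyz2 was lower (0.213 ± 0.124 CPM in KO, 8.54 ± 0.522 CPM in WT, SD, n = 3 each) and Csf1r and Cd68 were higher in KO. The 8 listed summed to at most 6.27 CPM in KO and 10.5 CPM in WT, with the defining marker Ptprc at 0 counts in all 6 libraries. Mesothelial and epithelial markers summed to between 9.87 and 13.4 CPM in KO and between 77.0 and 84.8 CPM in WT. Of the 4 tested, Krt19 and Msln, which hold most of the WT sum, were lower and Wt1 and Cdh1 higher in KO. The part of these differences in the results below was not tested.

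Replication genes were lower in KO almost without exception. Of the 47 genes, all of which passed the filter on low counts, 46 were lower and 0 higher in KO (edgeR quasi-likelihood test, adjusted p under 0.05), where 34.2% of all tested genes were lower and 35.1% higher. At least a 2-fold decrease was found for 43 of them, against 19.8% of all tested genes, a 4-fold decrease for 26, against 9.74%, and an 8-fold decrease for 10, against 5.66%. The median log2 fold change of the 47 genes was -2.11, beside 0.03 for all tested genes. In all 47 genes every KO library lay below every WT library, as in 37.1% of all tested genes. Together they summed to 1557, 1738 and 1666 CPM in the KO libraries, against 7880, 7003 and 7604 CPM in the WT libraries. In bulk RNA, fewer cells in S phase and less RNA of these genes per cell cannot be told apart.

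**Figure D1:**
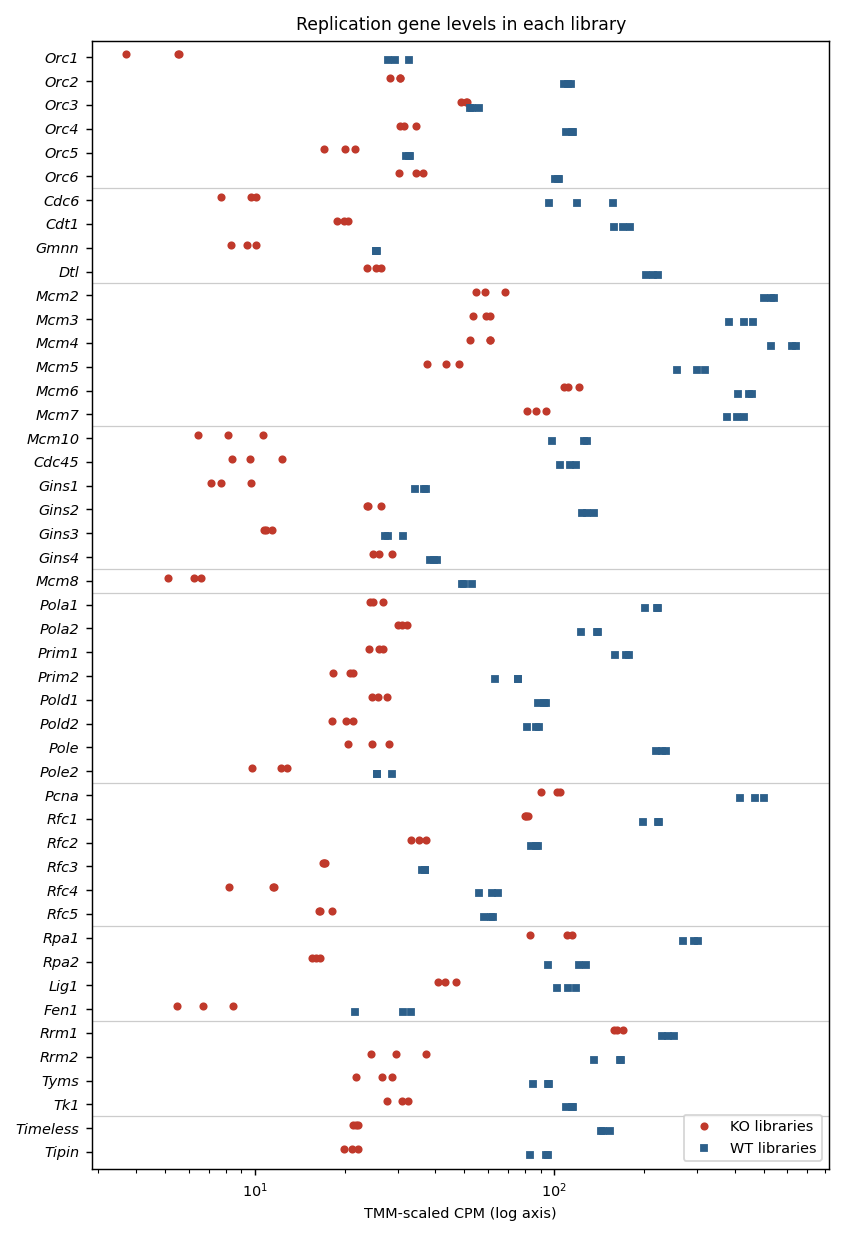
TMM-scaled CPM of the 47 replication genes on a log axis, with circles for the KO libraries and, just below them, squares for the WT libraries. Grey lines separate the roles from the origin recognition complex (top) to fork protection (bottom). In every gene the KO libraries lie below the WT libraries, with the smallest distance in Orc3 (48.9 to 51.0 CPM in KO, 52.2 to 56.2 CPM in WT), whose sign turns in the deposited FPKM.

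The decrease was unequal between roles. The licensing factors Cdc6, Cdt1, their regulator Dtl and the inhibitor Gmnn had a median log2 fold change of -3.09, MCM2-7 of -2.82, the fork protection pair of -2.44, and the helicase activators of -2.27. Lower in size were the median decreases of the polymerases and primase (-2.11), of nucleotide supply (-1.87), of the single-strand binding, flap and nick-sealing genes (-1.78), of the origin recognition complex (-1.71) and of clamp and clamp loader (-1.62). The ranges of the roles overlapped, and the order is a description of 2 to 8 genes each.

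**Figure D2:**
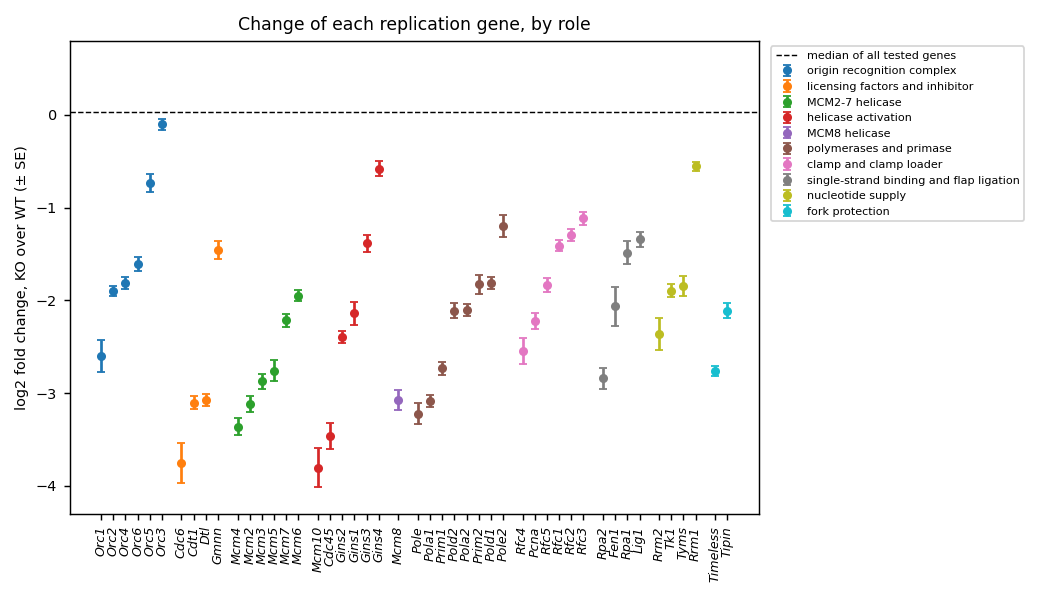
Log2 fold change of KO over WT with its SE (edgeR, 3 libraries per group) for each replication gene, coloured by role and ordered within it, with the median of all tested genes as a dashed line. The values run from -3.81 (Mcm10) to -0.10 (Orc3, 0.05 in the deposited FPKM), and 3 genes besides Orc3 lie above -1, namely Orc5, Gins4 and Rrm1.

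The origin recognition complex, which marks origins, held both strong and weak changes. Orc1, the subunit whose level is known to follow the cell cycle, was at 5.56, 5.55 and 3.70 CPM in KO libraries, against 32.6, 27.7 and 29.5 CPM in WT libraries. It fell 6.07-fold (log2 fold change -2.60 ± 0.17 SE, edgeR adjusted p = 2.18e-06). Orc2, a core subunit, was at 30.5, 30.4 and 28.2 CPM in KO and 114, 108 and 111 CPM in WT, and Orc4 at 31.4, 30.5 and 34.5 CPM in KO and 115, 109.6 and 114 CPM in WT. Both fell by a similar factor, 3.73 and 3.52-fold, although 29.8% of the exonic bases of Orc2 overlap exons of Nif3l1 on the opposite strand (21.5 CPM in KO, 45.9 CPM in WT). Orc6, the smallest subunit, fell 3.04-fold (edgeR adjusted p = 3.22e-07). Exons of Vps35 on the opposite strand (301 CPM in KO, 216 CPM in WT) overlap 6.93% of the exonic bases of Orc6, whose counts may include its reads. Orc5 fell less, at 17.0, 19.9 and 21.6 CPM in KO against 32.6, 33.0 and 31.9 CPM in WT (log2 fold change -0.73 ± 0.10 SE, edgeR adjusted p = 0.000214). Orc3, also a core subunit, had 50.6, 48.9 and 51.0 CPM in KO and 52.2, 56.2 and 52.9 CPM in WT and missed the threshold (log2 fold change -0.10 ± 0.06 SE, edgeR adjusted p = 0.164). The groups of Orc3 did not overlap, as in 75.5% of all tested genes, and its sign turned with the deposited FPKM (0.05), whereas scaling by total counts gave -0.23 and a call.

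The levels of the subunits per length could be set side by side in the deposited FPKM (a level per transcript length and depth). In KO, Orc3 was the most abundant subunit at 28.8 ± 1.27 FPKM (SD, n = 3), followed by Orc6 at 24.2 ± 2.79 FPKM, and Orc1 was the least abundant at 1.97 ± 0.332 FPKM. In WT, Orc6 led at 83.6 ± 2.70 FPKM, Orc4 (49.5 ± 3.25 FPKM) and Orc2 (32.5 FPKM) came next, and Orc3 stood below these at 27.8 ± 1.90 FPKM, with Orc1 again last at 10.4 ± 0.63 FPKM. Orc3 in KO (29.8, 27.4 and 29.3 FPKM) lay above Orc6 in KO (21.1, 26.6 and 24.8 FPKM) in every library, by less than 1 FPKM where they came closest. The ratio of the highest to the lowest mean was 14.6 in KO and 8.05 in WT.

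**Figure D3:**
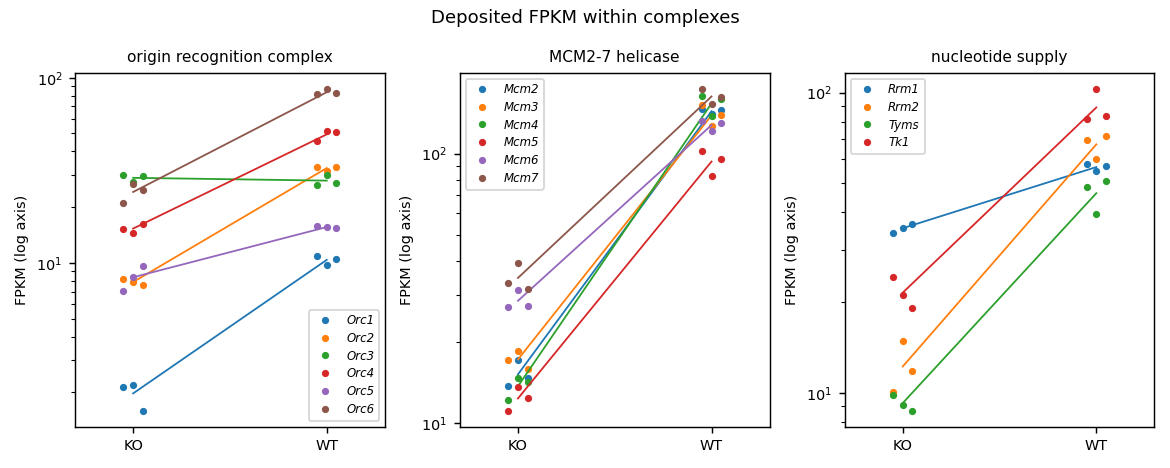
Deposited FPKM on a log axis for the subunits of the origin recognition complex, of MCM2-7 and for nucleotide supply genes, with 1 point per library (KO left, WT right) and a line between the means. Orc3 is the one gene whose FPKM mean is not lower in KO (28.8 in KO, 27.8 in WT), although its CPM are lower, and Rrm1 has the flattest line of the nucleotide genes.

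Cdc6 and Cdt1, the pair that loads the helicase, were among the most reduced genes. Cdc6, an ATPase, was at 7.71, 10.1 and 9.69 CPM in KO and at 157, 95.9 and 119 CPM in WT, where the WT libraries spread most. It fell 13.5-fold (log2 fold change -3.76 ± 0.21 SE, edgeR adjusted p = 5.68e-06), the largest decrease after Mcm10 of the 47 genes. Cdt1 was at 18.8, 20.4 and 19.8 CPM in KO and 179.6, 158 and 169 CPM in WT (8.60-fold, edgeR adjusted p = 6.57e-09). Dtl, which guides a ubiquitin ligase to Cdt1 bound to chromatin, was at 25.3, 23.8 and 26.5 CPM in KO and 222, 202 and 214 CPM in WT and fell 8.45-fold. Geminin (Gmnn), the protein that blocks Cdt1 after S phase begins, fell less, to 10.1, 8.35 and 9.38 CPM in KO against 25.4, 25.4 and 25.6 CPM in WT (2.75-fold, edgeR adjusted p = 2.81e-06). The WT libraries of Gmnn were the more tightly grouped.

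All 6 subunits of the MCM2-7 ring fell. Mcm4 had 52.5, 61.2 and 60.9 CPM in KO libraries, against 641, 529 and 623 CPM in WT libraries, and fell 10.3-fold (log2 fold change -3.36 ± 0.10 SE, edgeR adjusted p = 3.22e-08). Mcm3 was at 59.3, 61.1 and 53.6 CPM in KO and 461, 383 and 429.7 CPM in WT, and Mcm5 at 37.5, 48.1 and 43.4 CPM in KO and 318, 256 and 299 CPM in WT. These fell 7.32 and 6.77-fold, and Mcm2 8.67-fold. Mcm6 (108, 121 and 111 CPM in KO, 457, 409 and 447 CPM in WT) and Mcm7 (80.8, 94.0 and 86.8 CPM in KO, 430.1, 377 and 409 CPM in WT) fell least, 3.86 and 4.65-fold. Per length, the 6 subunits of a ring that holds 1 copy of each lay between 12.4 (Mcm5) and 34.6 (Mcm7) FPKM in KO, a ratio of 2.80, and between 93.5 (Mcm5) and 163 (Mcm7) FPKM in WT, a ratio of 1.74. Mcm5 was thus lowest and Mcm7 highest in both groups, while Mcm4, second in WT at 154 FPKM, was above only Mcm5 in KO at 13.7 FPKM.

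Mcm8, a relative of these subunits that works with Mcm9 in homologous recombination rather than in licensing, was at 6.27, 6.62 and 5.14 CPM in KO and 53.0, 49.2 and 49.9 CPM in WT. It fell 8.43-fold (edgeR adjusted p = 7.17e-08), and its log2 fold change of -3.08 was close to that of Mcm2 (-3.12). Mcm9, chosen after its values were seen, fell only 1.37-fold (log2 fold change -0.46, edgeR adjusted p = 0.0174).

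The genes that activate the loaded helicase covered almost the whole span of changes. Mcm10, a scaffold needed to start the active helicase, had the largest decrease of the 47 genes, with 6.46, 10.6 and 8.14 CPM in KO against 128, 98.2 and 126 CPM in WT (14.0-fold, log2 fold change -3.81 ± 0.21 SE, edgeR adjusted p = 4e-06). Cdc45, the helicase cofactor, was at 9.63, 12.3 and 8.42 CPM in KO and 118, 104 and 113 CPM in WT (11.1-fold). Exons of Ufd1 on the opposite strand (48.3 CPM in KO, 51.3 CPM in WT) overlap 5.96% of the exonic bases of Cdc45, whose counts may include its reads. The 4 GINS subunits, which form a complex with 1 copy of each, fell unequally. Gins2 was at 23.6, 26.3 and 23.9 CPM in KO and 135, 124 and 128 CPM in WT, a 5.25-fold decrease, followed by Gins1 (4.41-fold) and Gins3 (2.61-fold). Gins4 was at 24.9, 26.0 and 28.7 CPM in KO and 38.6, 40.6 and 39.8 CPM in WT and fell 1.49-fold (edgeR adjusted p = 0.000208). Per length, Gins4 was the highest GINS subunit in KO at 16.5 ± 1.26 FPKM (SD, n = 3), above Gins1 at 6.70 ± 0.858 FPKM, whereas in WT Gins2 at 33.1 ± 0.686 FPKM and Gins1 at 31.6 ± 1.06 FPKM lay above Gins4 at 26.8 ± 1.02 FPKM. In the annotation used here, 67.3% of the exonic bases of Gins2 overlap exons of Gse1 on the opposite strand (46.1 CPM in KO, 76.6 CPM in WT), and since the strand setting of the counting is not given, the counts of Gins2 may include reads of that gene.

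All 8 genes of the replicative polymerases and primase fell. Pole, the catalytic subunit of the leading-strand polymerase epsilon, had 24.6, 28.1 and 20.5 CPM in KO libraries, against 236, 219 and 229 CPM in WT libraries (9.33-fold, edgeR adjusted p = 8.71e-08). Its partner Pole2 was at 9.79, 12.2 and 12.8 CPM in KO and 25.5, 25.5 and 28.8 CPM in WT and fell only 2.29-fold, the smallest decrease of the 8. In polymerase alpha, which lays down the first bases of each fragment, the catalytic subunit Pola1 (24.1, 26.9 and 24.8 CPM in KO, 222, 201 and 219.9 CPM in WT) fell 8.49-fold and the subunit Pola2 4.31-fold. The primase that makes the RNA primer showed the same order, with the catalytic Prim1 down 6.66-fold and Prim2, at 18.3, 21.3 and 20.9 CPM in KO and 75.8, 63.2 and 75.8 CPM in WT, down 3.55-fold. In polymerase delta, which copies the lagging strand, the catalytic Pold1 (24.6, 27.7 and 25.8 CPM in KO, 92.2, 93.6 and 88.5 CPM in WT) fell 3.51-fold and Pold2 4.32-fold. The catalytic subunit thus fell more than its partner among the 8 in alpha, epsilon and primase, whereas Pold1 fell less than Pold2 in delta. Of the further delta subunits, chosen after their values were seen, Pold3 fell 1.49-fold and Pold4 rose 1.76-fold. Pold1 thus fell more than these.

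The sliding clamp fell more than most of its loader. Pcna, the ring that holds polymerases on DNA, was at 90.4, 104 and 102 CPM in KO and 501, 417 and 469.9 CPM in WT (4.67-fold, edgeR adjusted p = 1.06e-07). It was the most abundant of the 47 genes per length in both groups, at 55.7 ± 4.49 FPKM (SD, n = 3) in KO and 286 ± 23.6 FPKM in WT. Among the 5 subunits of the loader RFC, Rfc4 fell most, with 8.20, 11.5 and 11.6 CPM in KO against 65.0, 56.2 and 62.1 CPM in WT (5.85-fold), followed by Rfc5 (3.57-fold). Exons of Eif4a2 on the opposite strand overlap 12.7% of the exonic bases of Rfc4. Eif4a2 was far more abundant (178 CPM in KO, 255 CPM in WT), so the counts of Rfc4 may include its reads. The same holds for Rfc5, where exons of Wsb2 (78.0 CPM in KO, 76.1 CPM in WT) overlap 10.7% of the exonic bases on the opposite strand. The large subunit Rfc1 was at 80.7, 81.7 and 79.9 CPM in KO and 224, 198 and 223 CPM in WT (2.66-fold), and Rfc2 and Rfc3 fell 2.45 and 2.16-fold. All 5 loader subunits passed the test (edgeR adjusted p at most 1.58e-06).

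Of the genes for single strands and nicks, Rpa2 and Rpa1, subunits of the protein that coats single-stranded DNA, fell by different factors. Rpa2 was at 15.5, 16.0 and 16.5 CPM in KO and 128, 95.5 and 121 CPM in WT (7.17-fold), whereas Rpa1 was at 82.8, 115 and 110.4 CPM in KO and 302, 270.1 and 292 CPM in WT (2.81-fold). Ligase 1 (Lig1), which seals Okazaki fragments, was at 43.7 ± 3.14 CPM in KO and 111 ± 8.21 CPM in WT (SD, n = 3 each), a 2.54-fold decrease. Fen1, the nuclease that trims their flaps, was at 5.47, 8.42 and 6.69 CPM in KO and 33.1, 31.3 and 21.6 CPM in WT (4.19-fold, edgeR adjusted p = 4.46e-05), with WT replicate 3 the lowest of its group. An antisense gene, Gm10143, covers 78.8% of the exonic bases of Fen1 and had 1.51 CPM in KO and 8.55 CPM in WT, so the 2 may share reads. Exons of Tmem258 on the opposite strand overlap 5.37% of the exonic bases of Fen1. Tmem258 was more abundant than Fen1 (48.3 CPM in KO, 40.8 CPM in WT), so the counts of Fen1 may include its reads as well.

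Nucleotide supply was split between the subunits of 1 enzyme. Ribonucleotide reductase makes deoxynucleotides from a large subunit, Rrm1, and a small subunit, Rrm2, whose amount is known to limit the enzyme in S phase. Rrm1 was at 159, 162 and 169 CPM in KO and 251, 229 and 239.7 CPM in WT and fell 1.47-fold (log2 fold change -0.56 ± 0.05 SE, edgeR adjusted p = 1.66e-05). Rrm2 was at 24.3, 37.2 and 29.5 CPM in KO and 166, 136 and 167 CPM in WT and fell 5.15-fold (edgeR adjusted p = 1.5e-05). Per length, Rrm1 stood above Rrm2 in KO (34.1, 35.3 and 36.6 FPKM for Rrm1, 12.2 ± 2.43 FPKM for Rrm2, SD, n = 3), and below it in WT (58.0, 54.7 and 56.8 FPKM for Rrm1, 67.2 ± 6.17 FPKM for Rrm2). The order of the subunits was thus opposite in the genotypes, in all 3 libraries of each. Thymidylate synthase (Tyms), which makes thymidylate anew, fell 3.59-fold, and thymidine kinase 1 (Tk1), which salvages it, fell 3.73-fold (31.0, 32.4 and 27.7 CPM in KO, 109, 116 and 114 CPM in WT).

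Timeless and Tipin, which together keep a stalled fork intact, both fell. Timeless was at 21.3, 22.2 and 21.7 CPM in KO and 145, 154 and 144 CPM in WT (6.80-fold, log2 fold change -2.77 ± 0.06 SE), with the smallest adjusted p of the 47 genes (edgeR, 4.62e-09). Tipin was at 21.1, 22.1 and 19.8 CPM in KO and 93.5, 83.0 and 95.5 CPM in WT and fell 4.32-fold (edgeR adjusted p = 8.23e-08).

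The unequal changes inside complexes were followed as log2 ratios of CPM between 7 pairs of genes in each library. An exact two-sided permutation test of 3 against 3 libraries cannot go below p = 0.10, which 6 of the pairs reached, and no pair passed after adjustment over the 7 (adjusted p = 0.117 for these 6). Geminin over its target Cdt1 was -1.09 ± 0.20 in KO and -2.73 ± 0.09 in WT (SD, n = 3, exact permutation test p = 0.10), a difference of 1.64 ± 0.13 (SE) or a 3.12-fold higher ratio in KO. Rfc1 over Rfc4 was also higher in KO, at 2.97 ± 0.29 against 1.81 ± 0.03 in WT, with the exon overlap of Rfc4 given above. The other 4 ratios were lower in KO in every library. Rrm2 over Rrm1 differed by -1.82 ± 0.19 (SE), with -2.45 ± 0.30 in KO and -0.62 ± 0.12 in WT, Pole over Pold1 by -1.42 ± 0.12, Prim1 over Prim2 by -0.91 ± 0.05 and Orc1 over Orc2 by -0.72 ± 0.16, or by -0.32 in the deposited FPKM. Mcm8 over Mcm2 was -3.33 ± 0.20 in KO and -3.37 ± 0.03 in WT, a difference of 0.04 ± 0.12 (exact permutation test p = 0.90), or of 0.53 in the deposited FPKM.

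**Figure D4:**
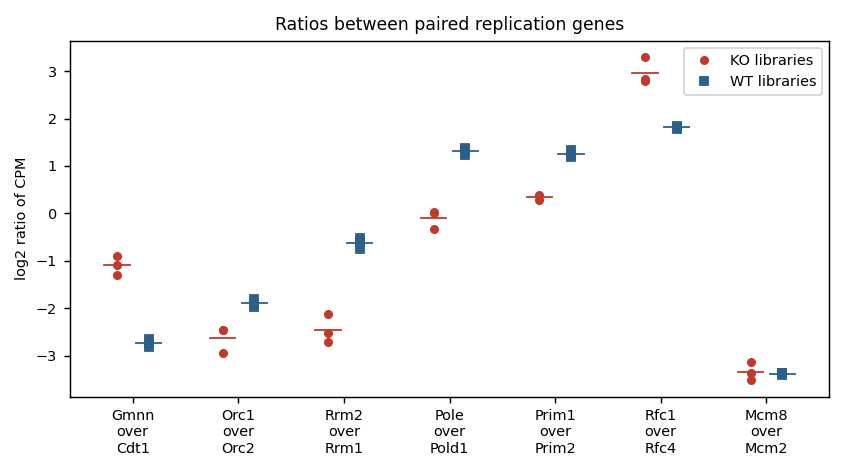
Log2 ratio of TMM-scaled CPM between 7 pairs of replication genes, with 1 point per library (KO circles left, WT squares right) and a bar at each group mean. The groups do not overlap in 6 pairs, and in Mcm8 over Mcm2 the WT libraries lie within the range of the KO libraries.

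Promoter windows were searched for short words known from cell cycle promoters. Many of the listed genes are known to be under E2F control, so a raised share of E2F words follows largely from which genes were listed. It is no independent support. RefSeq windows of 250 bases before to 50 bases after the annotated start (build GRCm38.p6, not the build of the counts) matched 38 of the 47 genes, 6 of them with several windows. The E2F words TTTCCCGC, TTTGGCGC, TTTCGCGC and TTTGCCGC, searched on both strands, occurred in 16 of the 38 genes (42.1%), against 2.61% of 27025 genes with a window. CCAAT, the word of the NF-Y factor, occurred in 63.2% of the 38 genes and in 41.1% of all genes, and GGGCGG, the GC box, in 71.1% of the 38 genes and 38.2% of all genes. TTTGAA or TTCGAA, known as the CHR word of late cell cycle genes, occurred in 18.4% of the 38 genes and 21.7% of all genes. Of the 22 E2F matches in these windows, 4 overlapped another E2F match and 1 a CCAAT match. A match is a description of letters, not of binding, and base composition was not matched. The 27025 genes were not limited to the 18732 tested for expression, whereas all of the 38 genes were tested. The 16 genes with an E2F word had a median log2 fold change of -2.41, and the 22 without one of -2.09, with overlapping ranges (-3.76 to -0.10 with, -3.81 to -0.56 without).

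The windows of 7 genes are printed to set strongly and weakly changed genes side by side. Capitals mark the E2F words in the first 5 and the CCAAT words in Mcm10 and Rrm1, whose windows hold no complete E2F word. Each runs 5′ to 3′ in the direction of the gene.
Orc1 (chr4:108579204-108579503, plus strand): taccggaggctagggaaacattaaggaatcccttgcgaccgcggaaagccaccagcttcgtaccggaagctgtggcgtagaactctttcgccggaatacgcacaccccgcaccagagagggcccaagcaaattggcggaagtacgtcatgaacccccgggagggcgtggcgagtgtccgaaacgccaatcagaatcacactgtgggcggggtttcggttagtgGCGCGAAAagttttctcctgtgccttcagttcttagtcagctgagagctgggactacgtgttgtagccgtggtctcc
Orc3 (chr4:34614893-34615192, minus strand): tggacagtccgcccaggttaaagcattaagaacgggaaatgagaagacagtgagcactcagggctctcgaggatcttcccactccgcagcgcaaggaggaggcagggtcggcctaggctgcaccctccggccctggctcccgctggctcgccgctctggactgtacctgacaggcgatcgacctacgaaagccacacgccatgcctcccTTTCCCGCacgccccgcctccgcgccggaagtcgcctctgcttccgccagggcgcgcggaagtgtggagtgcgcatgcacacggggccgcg
Cdc6 (chr11:98907901-98908200, plus strand): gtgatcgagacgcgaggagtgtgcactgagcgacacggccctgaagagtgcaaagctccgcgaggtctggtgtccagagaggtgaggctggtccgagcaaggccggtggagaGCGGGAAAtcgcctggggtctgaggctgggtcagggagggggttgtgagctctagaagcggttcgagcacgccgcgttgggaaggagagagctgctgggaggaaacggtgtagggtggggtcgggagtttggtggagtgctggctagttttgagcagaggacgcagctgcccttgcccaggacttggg
Mcm3 (chr1:20820263-20820562, minus strand): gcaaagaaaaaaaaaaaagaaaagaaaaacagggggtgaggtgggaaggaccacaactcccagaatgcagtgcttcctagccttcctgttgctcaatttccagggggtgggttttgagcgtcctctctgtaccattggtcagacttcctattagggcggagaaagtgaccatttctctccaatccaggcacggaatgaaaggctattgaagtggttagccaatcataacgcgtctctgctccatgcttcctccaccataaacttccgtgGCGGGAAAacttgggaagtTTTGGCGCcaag
Mcm6 (chr1:128359656-128359955, minus strand): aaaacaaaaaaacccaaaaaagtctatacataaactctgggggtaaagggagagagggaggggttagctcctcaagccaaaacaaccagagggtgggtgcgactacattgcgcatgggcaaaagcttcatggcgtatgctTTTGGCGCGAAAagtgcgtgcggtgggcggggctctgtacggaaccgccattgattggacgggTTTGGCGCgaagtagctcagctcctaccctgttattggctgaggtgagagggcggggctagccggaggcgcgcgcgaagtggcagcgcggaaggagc
Mcm10 (chr2:5012742-5013041, minus strand): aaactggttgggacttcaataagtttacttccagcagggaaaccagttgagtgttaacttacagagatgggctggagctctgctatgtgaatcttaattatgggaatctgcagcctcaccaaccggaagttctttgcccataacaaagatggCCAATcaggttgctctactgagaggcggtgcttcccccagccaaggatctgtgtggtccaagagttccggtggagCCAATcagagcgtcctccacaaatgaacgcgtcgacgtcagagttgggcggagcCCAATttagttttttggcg
Rrm1 (chr7:102441445-102441744, plus strand): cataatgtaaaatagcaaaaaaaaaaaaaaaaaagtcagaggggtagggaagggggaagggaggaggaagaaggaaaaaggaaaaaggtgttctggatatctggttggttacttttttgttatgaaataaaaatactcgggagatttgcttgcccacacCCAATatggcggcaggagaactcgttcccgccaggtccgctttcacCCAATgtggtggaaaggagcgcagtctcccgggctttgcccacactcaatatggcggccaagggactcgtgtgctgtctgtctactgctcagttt
Orc3, which did not pass the test, holds an E2F word 41 bases before its start, as Orc1, which fell 6.07-fold, does 27 bases before. Mcm6 holds 3 E2F words, of which those at -110 and -106 from the start overlap on opposite strands, and fell least of its ring. Mcm10, with the largest decrease, holds no complete E2F word and 3 CCAAT words. Its window ends in all but the last letter of the E2F word TTTGGCGC, so a word across the window end would be missed. Rrm1, one of the least changed genes, holds 2 CCAAT words.

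Of the 47 genes, 8 have a protein-coding neighbour that starts within 1000 bases on the opposite strand and runs away from them (GENCODE M21). Of the neighbours, 6 were lower and 2 higher in KO (edgeR), where 34.2% of all tested genes were lower, 35.1% higher and 69.3% called either way. The log2 fold change of the replication gene lay below that of its neighbour in 7 pairs, all but that of Orc3, a difference that was not tested. The 47 genes had a median of -2.11, beside 0.03 for all tested genes. This order therefore follows largely from which genes were listed and says little about the neighbours. Next to Mcm4, Prkdc, the DNA-dependent protein kinase of end joining, was at 40.6, 39.1 and 37.9 CPM in KO and 95.9, 96.9 and 97.5 CPM in WT (log2 fold change -1.31 ± 0.05 SE, edgeR adjusted p = 1.33e-07). Next to Mcm8, Trmt6, a transfer RNA methyltransferase subunit, was at 33.2, 33.2 and 34.9 CPM in KO and 80.5, 70.9 and 77.1 CPM in WT. These 2 neighbours fell less than the gene they adjoin. Next to Gins1, Abhd12 was at 81.1, 73.3 and 77.7 CPM in KO and 68.9, 63.3 and 62.2 CPM in WT, and next to Rpa1, Smyd4 at 26.9, 22.5 and 29.1 CPM in KO and 18.4, 18.3 and 18.7 CPM in WT, so both were higher in KO while the replication gene was lower. Orc3 and Rars2, a mitochondrial arginyl-tRNA synthetase, were the opposite case. Rars2 was at 17.7, 18.5 and 15.8 CPM in KO and 30.9, 30.7 and 31.1 CPM in WT (log2 fold change -0.84 ± 0.09 SE, edgeR adjusted p = 3.69e-05), whereas Orc3 did not pass the test.

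**Figure D5:**
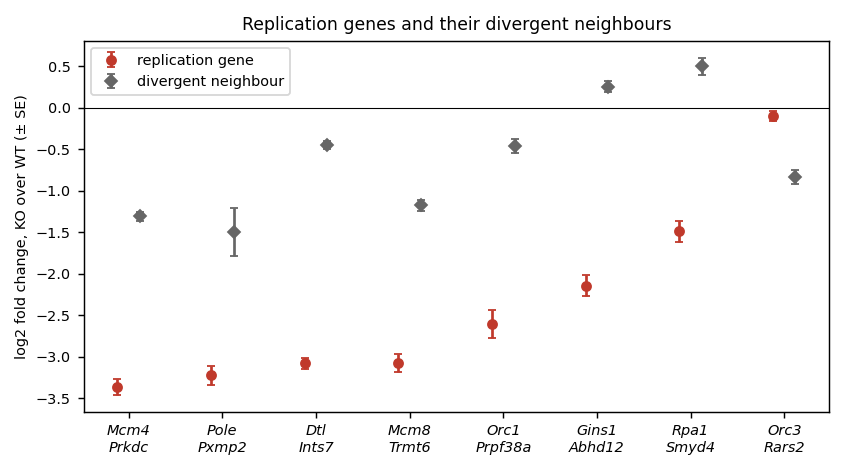
Log2 fold change of KO over WT with its SE for 8 replication genes (red circles) and the protein-coding neighbour that starts within 1000 bases and runs away from each (grey diamonds). The neighbour lies above the replication gene in 7 pairs and below it in the pair of Orc3 and Rars2.

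Other genes of replication were mostly lower as well. Of 40 further replisome and origin firing genes, 35 were lower and 1 higher in KO, with a median log2 fold change of -1.59. Among all tested genes, 34.2% were lower and 35.1% higher. Rif1, a regulator of origin timing, was at 28.4, 30.4 and 30.1 CPM in KO and 296, 266 and 288 CPM in WT (9.56-fold lower, edgeR adjusted p = 3.01e-09), Atad5, which unloads Pcna, fell 7.69-fold and Clspn, the checkpoint adaptor claspin, 9.55-fold. The 1 gene that rose was Pold4, the small subunit of polymerase delta, at 23.7, 23.7 and 25.7 CPM in KO and 12.7, 14.1 and 14.7 CPM in WT (1.76-fold higher, edgeR adjusted p = 7.39e-05). Not called were Rpa3, Rnaseh2b, Rnaseh2c and Chtf8. Rpa3, the small partner of Rpa1 and Rpa2, was at 18.8, 18.2 and 20.5 CPM in KO and 22.2, 22.8 and 19.4 CPM in WT (edgeR adjusted p = 0.163). Recql4, Cdc7 and Dbf4 were chosen after their values were seen: Recql4, a helicase of origin firing, fell 27.4-fold, to 6.41, 8.04 and 5.82 CPM in KO against 196, 170.3 and 188 CPM in WT, and the kinase that fires origins fell 3.63-fold in its catalytic subunit Cdc7 and 2.56-fold in its activator Dbf4.

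Of 26 further genes of nucleotide supply, 22 were lower and 3 higher in KO, with a median log2 fold change of -1.54. The shares over all tested genes were 34.2% lower and 35.1% higher. Dck, the cytosolic deoxycytidine kinase, was at 15.3 ± 1.64 CPM in KO and 109 ± 3.38 CPM in WT (SD, n = 3 each, 7.15-fold lower, edgeR adjusted p = 3.11e-08), and Dtymk, thymidylate kinase, and Gmps, of GMP synthesis, fell 3.12 and 2.63-fold. The genes that rose were Ctps2, a CTP synthase (106, 122 and 118 CPM in KO, 23.3, 26.8 and 23.5 CPM in WT, 4.71-fold), Tk2 (28.7, 30.6 and 41.4 CPM in KO, 17.1, 17.6 and 14.4 CPM in WT, 2.05-fold) and Dguok (25.9, 25.3 and 26.2 CPM in KO, 14.4, 15.9 and 14.0 CPM in WT, 1.75-fold). Tk2 and Dguok are the deoxynucleoside kinases of mitochondria, and both were higher in KO while the cytosolic kinases Tk1 and Dck were lower. Samhd1, which breaks deoxynucleotides down, was at 217, 194 and 205 CPM in KO and 216, 205 and 225 CPM in WT and was not called (edgeR adjusted p = 0.319).

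Markers of G2 and mitosis moved less evenly in the same libraries. Of 12, 9 were lower and 2 higher in KO (median log2 fold change -0.67), where 34.2% of all tested genes were lower and 35.1% higher. The 12 summed to between 608 and 675 CPM in KO and between 1679 and 1721 CPM in WT. Top2a, the topoisomerase that untangles chromosomes, was at 184, 208 and 195 CPM in KO and 917, 935 and 923 CPM in WT, and Birc5, the chromosomal passenger survivin, and Cdk1, the mitotic kinase, fell 4.23 and 3.53-fold. Mki67, a marker of cycling cells chosen after its values were seen, was at 133, 152 and 141 CPM in KO and 227, 249 and 227 CPM in WT, a 1.65-fold decrease. Ccnb2, a mitotic cyclin, was 2.26-fold higher in KO, and Cenpf, a kinetochore protein, was at 47.4, 55.2 and 56.5 CPM in KO and 39.2, 44.2 and 39.2 CPM in WT and was also called higher. The part of these differences in the decrease of the replication genes was not tested.

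Libraries of a group differed by little compared with the genotypes. The coefficient of variation of CPM over 3 libraries had a median of 7.58% in KO and 5.72% in WT over the 47 genes, with the largest values in Mcm10 in KO (24.8%) and Cdc6 in WT (24.8%). KO replicate 2 held the highest KO value in 29 of the 47 genes and KO replicate 1 the lowest in 29. WT replicate 1 held the highest WT value in 33 genes and WT replicate 2 the lowest in 32. The count of 46 lower genes was the same without any 1 of these libraries.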

How the data were processed

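Per the labels, the measured material was total RNA in Illumina libraries. Per the file headers, the authors deposited 1 table with raw counts and FPKM for each Ensembl gene. The submitters' processing notes name CASAVA 1.8, HISAT2, SAMtools 1.3.1, edgeR and build GRCm39. Which program counted the reads, with what strand setting and annotation, is not given. FPKM were normalized by the authors and served for levels per length and as alternatives. Between FPKM and counts, the log2 fold changes of the 47 genes differed by -0.46 to 0.36 (over 0.3 in 2, Tyms and Mcm8).

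Counts were filtered with filterByExpr by group (18732 genes kept), scaled with TMM factors (0.952 to 0.96 in KO, 1.04 to 1.06 in WT) and compared between genotypes over the 6 libraries, with no covariate, by the edgeR 4.0.16 quasi-likelihood method (robust option, R 4.3.3), with Benjamini-Hochberg adjustment over all tested genes at 0.05. The SE of a log2 fold change is its size divided by the square root of the test's F. Ratios within 7 pairs were compared by exact permutation over libraries. Symbols came from GENCODE M21 (98.23% of IDs matched). That annotation is of build GRCm38 and served otherwise only for neighbours and exon overlaps. Not every exon overlap of the 47 genes is named. Between replicates, the chi-square of counts divided by its degrees of freedom was 22.6 to 34.8, above sampling noise. Alternatives were DESeq2 1.42.0, limma-voom (limma 3.58.1), scaling by total counts, other filters, an adjusted p of 0.01, limma on log2(FPKM + 0.1), a block for the replicate number, and omission of each library. Genes, lists and tests were chosen with earlier results of these data known. All 47 genes are named, and of the other lists up to 3 genes with the smallest adjusted p in each direction, with the defining markers; exceptions are marked. Floors and intervals were not needed, since the lowest count of any of the 47 genes in a library was 218.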

Additional observations from a re-analysis of the deposited data

How the results depend on the processing

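The count of 46 lower and 0 higher replication genes was the same with DESeq2, limma-voom, both other filters, an adjusted p of 0.01, the deposited FPKM, and without any 1 library. It was 46 also with the replicate number as a block, and 47 with scaling by total counts, which called Orc3 (log2 fold change -0.23, edgeR adjusted p = 0.0103). That scaling moved the median log2 fold change of all tested genes to -0.10, against 0.03 with TMM factors. Of 658 alternative values for single genes, 656 kept direction and call. Orc3 reversed with the deposited FPKM, to 0.051 (limma adjusted p = 0.518, with 0.0103 to 0.518 over all its alternatives). The replicate numbers share only a number: deviations of same-numbered libraries correlated at -0.0237 to 0.018 across genes. The block changed no call of the 47 genes. Without 1 library at a time, the difference in Mcm8 over Mcm2 ranged from -0.069 to 0.13 on the log2 scale, and it turned negative without KO replicate 1 (-0.069). The other 6 ratios kept their sign in every alternative. Without 1 library, between 34 and 35 further replisome genes and between 20 and 22 further nucleotide genes were lower. Every library held at least 218 counts of each of the 47 genes, so depth does not limit their detection.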

Other observations

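Of 7 noncoding genes that start within 1000 bases of a replication gene and run away from it, 4 were lower and 1 higher in KO, and 2 were not called. Among all tested genes, 34.2% were lower, 35.1% higher and 69.3% called in either direction. The share called thus lies near that of all genes, and the direction in these few genes was not tested. AV099323, next to Pcna, was at 0.477, 0.4 and 0.747 CPM in KO and 2.38, 2.38 and 2.59 CPM in WT (edgeR adjusted p = 0.000299), and Gm15834, next to Orc2, at 0.835, 1.31 and 1.92 CPM in KO and 5.34, 6.74 and 6.03 CPM in WT (edgeR adjusted p = 0.000249). Gm10614, next to Gins2, went the other way, at 1.43, 1.93 and 1.87 CPM in KO and 0.19, 0.634 and 0.461 CPM in WT (edgeR adjusted p = 0.00365). These RNAs lie at low levels, and reads from the neighbouring gene cannot be separated where the strand setting is unknown.

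Chtf8, a clamp-loader cofactor of sister chromatid cohesion, was at 139, 19.8 and 141 CPM in KO and 172, 148 and 163 CPM in WT, so that KO replicate 2 alone lay far below the other libraries. The symbol is shared by 2 Ensembl IDs in the annotation used here, of which the lower-numbered was taken.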
